A study of Mus musculus with 4 samples.

Results

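The chemokine gene Cxcl12 and the genes of its receptors, Cxcr4 and Ackr3, were followed by symbol in single cells of the embryonic mouse nose, 3 of 32285 counted features. A cell entered if 500 or more genes were detected in it and if no more than 10% of its unique molecular identifiers (UMIs, tags that each mark 1 captured molecule) were mitochondrial. This left 13739 cells, of which 13284 remained once the cells with the highest doublet scores had been removed. Whole noses at embryonic day 14.5 were dissociated with papain and collagenase, frozen, and profiled by droplet 3′ RNA sequencing, giving 2 control and 2 mutant libraries. The mutants carried Tg(Sox10-cre)1Wdr with Yapflox and Tazflox on C57Bl/6J, and the series design gives Sox10cre with yap flox/WT and taz flox/flox. The sample labels give the controls as C57Bl/6J, whereas the series design gives yap flox/flox;taz flox/flox without Cre. Under that design text both groups carry floxed alleles and differ by Cre and by 1 Yap allele. Sox10 is active in the neural crest and its derivatives, so the Cre should reach the part of the nose that descends from such cells. No label or level here traces which cells it reached. The labels do not say which library went to which of the sequencing providers they name. A batch and the genotype therefore cannot be told apart. Nothing in the labels says that the 2 libraries of a group came from separate litters. The p-values measure the spread between these libraries, which edgeR pools in part or, in some fits, in effect wholly over genes.

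Cxcl12 encodes a secreted chemokine that draws migrating cells. Cxcr4 encodes the G protein-coupled receptor that reads it, and Ackr3 encodes an atypical receptor that binds the same ligand, takes it up and degrades it without classical G protein signalling. In the developing nose the ligand is known from nasal mesenchyme, and Cxcr4 from neurons that leave the olfactory placodes, including the neurons that make gonadotropin-releasing hormone. The series title names that migration, and the comparisons below ask where the ligand and its receptors were counted and whether their levels differed in the mutants.

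On GRCm38, Cxcl12 (ENSMUSG00000061353) lies at chr6:117168535-117181367 on the plus strand. Cxcr4 (ENSMUSG00000045382) lies at chr1:128588199-128592293 on the minus strand, and Ackr3 (ENSMUSG00000044337) at chr1:90203980-90216751 on the plus strand. The 120 bases before each start are shown because YAP and TAZ, the products of the targeted genes Yap1 and Wwtr1, act through TEAD factors. They come from RefSeq on GRCm38.p6, in which 3 of 3 genes matched. They span chr6:117168415-117168534 (plus), chr1:128592300-128592419 (minus) and chr1:90203860-90203979 (plus) in the order Cxcl12, Cxcr4, Ackr3. Each reads 5′ to 3′ along its gene, and capitals mark TATAAA (the TATA box) and GGGCGG (the GC box) on either strand.
Cxcl12: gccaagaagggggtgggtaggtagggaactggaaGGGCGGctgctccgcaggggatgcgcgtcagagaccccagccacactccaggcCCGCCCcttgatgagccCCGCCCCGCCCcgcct
Cxcr4: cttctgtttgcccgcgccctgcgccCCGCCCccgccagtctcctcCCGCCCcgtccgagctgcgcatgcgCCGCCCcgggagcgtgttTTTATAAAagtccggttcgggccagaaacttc
Ackr3: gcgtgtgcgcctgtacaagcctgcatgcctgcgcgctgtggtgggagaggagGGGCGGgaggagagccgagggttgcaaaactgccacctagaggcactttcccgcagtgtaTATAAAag
Cxcl12 held 4 matches to GGGCGG and none to TATAAA. Cxcr4 held 3 to GGGCGG and 2 overlapping ones to TATAAA on opposite strands, and Ackr3 held 1 of each. Read along the gene, the TATAAA matches began 32 and 30 bases before the start in Cxcr4 and 8 bases before it in Ackr3. Whether any of them works as a TATA box was not tested. The TEAD core GGAATG, searched on both strands, had no match in these 3 windows, which says only that these letters are not there. Over 32851 RefSeq windows of the same length, 26.5% held GGGCGG, 6.34% TATAAA and 5.82% GGAATG. G and C made up 71.7%, 68.3% and 60.8% of the windows of Cxcl12, Cxcr4 and Ackr3, and the median of all windows was 54.2%.

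The kept cells numbered 3926, 2418, 2908 and 4032 in control 1, control 2, mutant 1 and mutant 2, with 19053672 to 33434242 UMIs per library. Median depth per cell ran from 5209 UMIs in mutant 2 to 8486.5 in mutant 1. Pairs of libraries shared 3 to 5 cell barcodes. Clustering, made without the members and their pathway genes, gave 49 clusters, which marker lists sorted into 14 named classes, and 3 clusters (372 cells) stayed unnamed. One of them, cluster 48, had 99 of its 100 cells in mutant 2. Each class name means cells like that type. Levels are in CPM, UMIs of a gene per 1000000 UMIs of the class, cluster or library. Of the targeted genes, Yap1 had 65.2, 65.3, 56.8 and 55.8 CPM in the whole nose and Wwtr1 had 117, 144, 123 and 133. The driver gene Sox10 had 5.05, 6.61, 4.40 and 3.77. These 3′ reads need not cover the floxed exons, so the levels check neither label.

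Most Cxcl12 transcripts of the nose were counted in mesenchymal cells. Mesenchymal cells, which express collagens and Pdgfra, held 92.8%, 94.8%, 94.5% and 90.0% of its UMIs in control 1, control 2, mutant 1 and mutant 2. Osteoblasts held a further 2.48% to 4.88%, and endothelial and mural cells, the lining and the contractile coat of vessels, each held at most 1.20%. Per cell class the level of Cxcl12 in mesenchyme was 193 ± 18.5 CPM (SD, n = 4 libraries), above every other class in each library. Glia followed with 83.1 ± 46.8, mural cells with 73.3 ± 34.3 and osteoblasts with 65.6 ± 7.27 (SD, n = 4 each), 3 neighbours whose ranges overlapped. Endothelial cells, at 18.7 ± 13.03, lay below osteoblasts with no overlap. Each of these is a level in the summed UMIs of a class, so it is not a total that grows with the number of cells caught. It does depend on the mix of clusters within the class, and mesenchymal clusters had means from 14.9 to 745 CPM.

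Outside mesenchyme, glia, osteoblasts and vessels, means of Cxcl12 in the named classes were lower. Macrophages, taken as the background class for this gene, held 0, 0, 0 and 2 UMIs of Cxcl12. The olfactory neuronal lineage, with 26, 6, 23 and 17 cells, held none. A count of 0 there allows up to 16.8, 52.2, 12.7 and 37.1 CPM in the 4 libraries, where the limit is 3 counts. With doublets kept, the neuronal mean was 8.16. Keratinocytes had 3.12 ± 1.51 and non-neuronal olfactory epithelial cells 11.5 ± 3.95 CPM (SD, n = 4). The unnamed cells, left out of this order, had 59.6, 90.4, 70.0 and 105 CPM in control 1, control 2, mutant 1 and mutant 2. Of their clusters, 33 and 48 were shallow, with medians of 1538 and 1985.5 UMIs per cell. Whether free RNA had a part in these levels was not tested. Intervals and limits here cover counting error only.

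**Figure D1:**
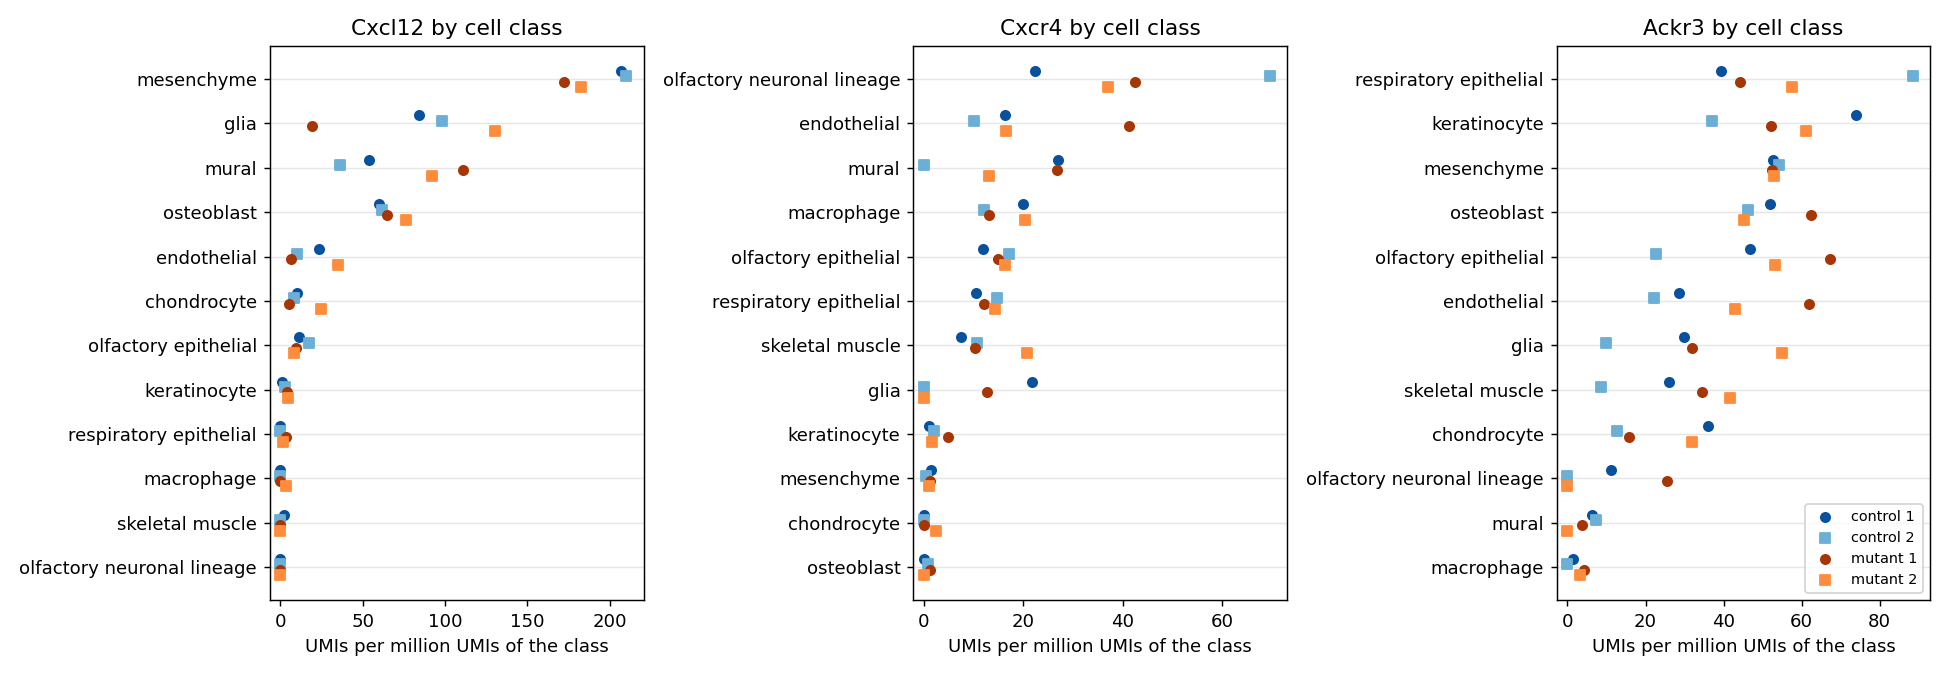
Level of each gene in CPM (x axis, linear) for 12 cell classes (y axis, highest mean first); each point is 1 library, blue for controls and orange for mutants, circles for replicate 1 and squares for replicate 2. Cxcl12 in mesenchyme lies between 172 and 210 in the 4 libraries, Cxcr4 is highest on average in the olfactory neuronal lineage, and Ackr3 in mesenchyme lies between 52.3 and 54.3.

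Within the mesenchyme Cxcl12 ranged widely. The 27 mesenchymal clusters had means from 14.9 CPM in cluster 0 (led by Csmd3, Dpp6 and Ostn) to 745 in cluster 27 (with Vtn and Slc6a13 among its leading genes), with a median of 138. Cluster 27 carried 4 of 8 measured markers of meninges-like mesenchyme, among them Slc6a13, which encodes a GABA and taurine transporter. Its Cxcl12 was 1162, 898, 302 and 617 CPM in control 1, control 2, mutant 1 and mutant 2. Both controls were above both mutants, but the mutant values rest on 3 and 8 cells, against 51 and 52 in the controls. Its cells made up 1.30%, 2.15%, 0.103% and 0.198% of the libraries in the same order. Of all Cxcl12 UMIs, this cluster supplied 12.7%, 14.0%, 0.179% and 1.67%, again in that order.

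Other mesenchymal clusters were rich in Cxcl12 in every library. Cluster 7, led by Agtr2 (an angiotensin receptor), Dlk1 and Cdh4, had 515, 429, 612 and 469 CPM. Cluster 10, led by Pax9, Slc25a21 and Galntl6, had 441, 299, 409 and 446, and cluster 18, led by C130073E24Rik, Lrp1b and Abi3bp, had 394, 338, 429 and 387. In these 3 clusters control and mutant values overlapped. At the low end stood clusters 17 (Pou3f4, Col23a1, Trps1, at 22.1 to 44.2) and 39 (Pdlim3, Col19a1, Fgf14, at 22.7 to 48.0). Shares of cells also differed, given here for control 1, control 2, mutant 1 and mutant 2. Clusters 7 (6.37%, 5.50%, 1.72% and 3.89%) and 10 (3.03%, 3.10%, 2.54% and 2.55%) were smaller in both mutants. Clusters 17 (1.32%, 2.73%, 5.26% and 3.42%) and 18 (1.83%, 1.61%, 2.68% and 2.43%) were larger in both, and cluster 39 overlapped. The part of these shares in the mesenchymal level was not tested.

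Along the bone-forming clusters Cxcl12 was lower where late osteoblast genes led. Cluster 1, led by Pdzrn4, Runx2 and Prtg, had 139, 97.3, 116 and 156 CPM, where Runx2 encodes the factor that starts osteoblast formation. Cluster 19, led by Alpl, Nrgn and Dlx5, had 30.7, 50.5, 35.4 and 52.7. Cluster 31, led by Ibsp, Ifitm5 and Spp1, genes of mineralising osteoblasts, had 19.1, 16.2, 13.7 and 20.01. The ranges of these 3 clusters over the 4 libraries did not overlap. Ackr3 showed no such order, with 49.7 to 55.5 in cluster 1, 29.1 to 53.1 in cluster 19 and 32.4 to 97.7 in cluster 31. Chondrocytes, led by Matn1 and Col2a1, had 5.25 to 24.5 CPM of Cxcl12.

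**Figure D2:**
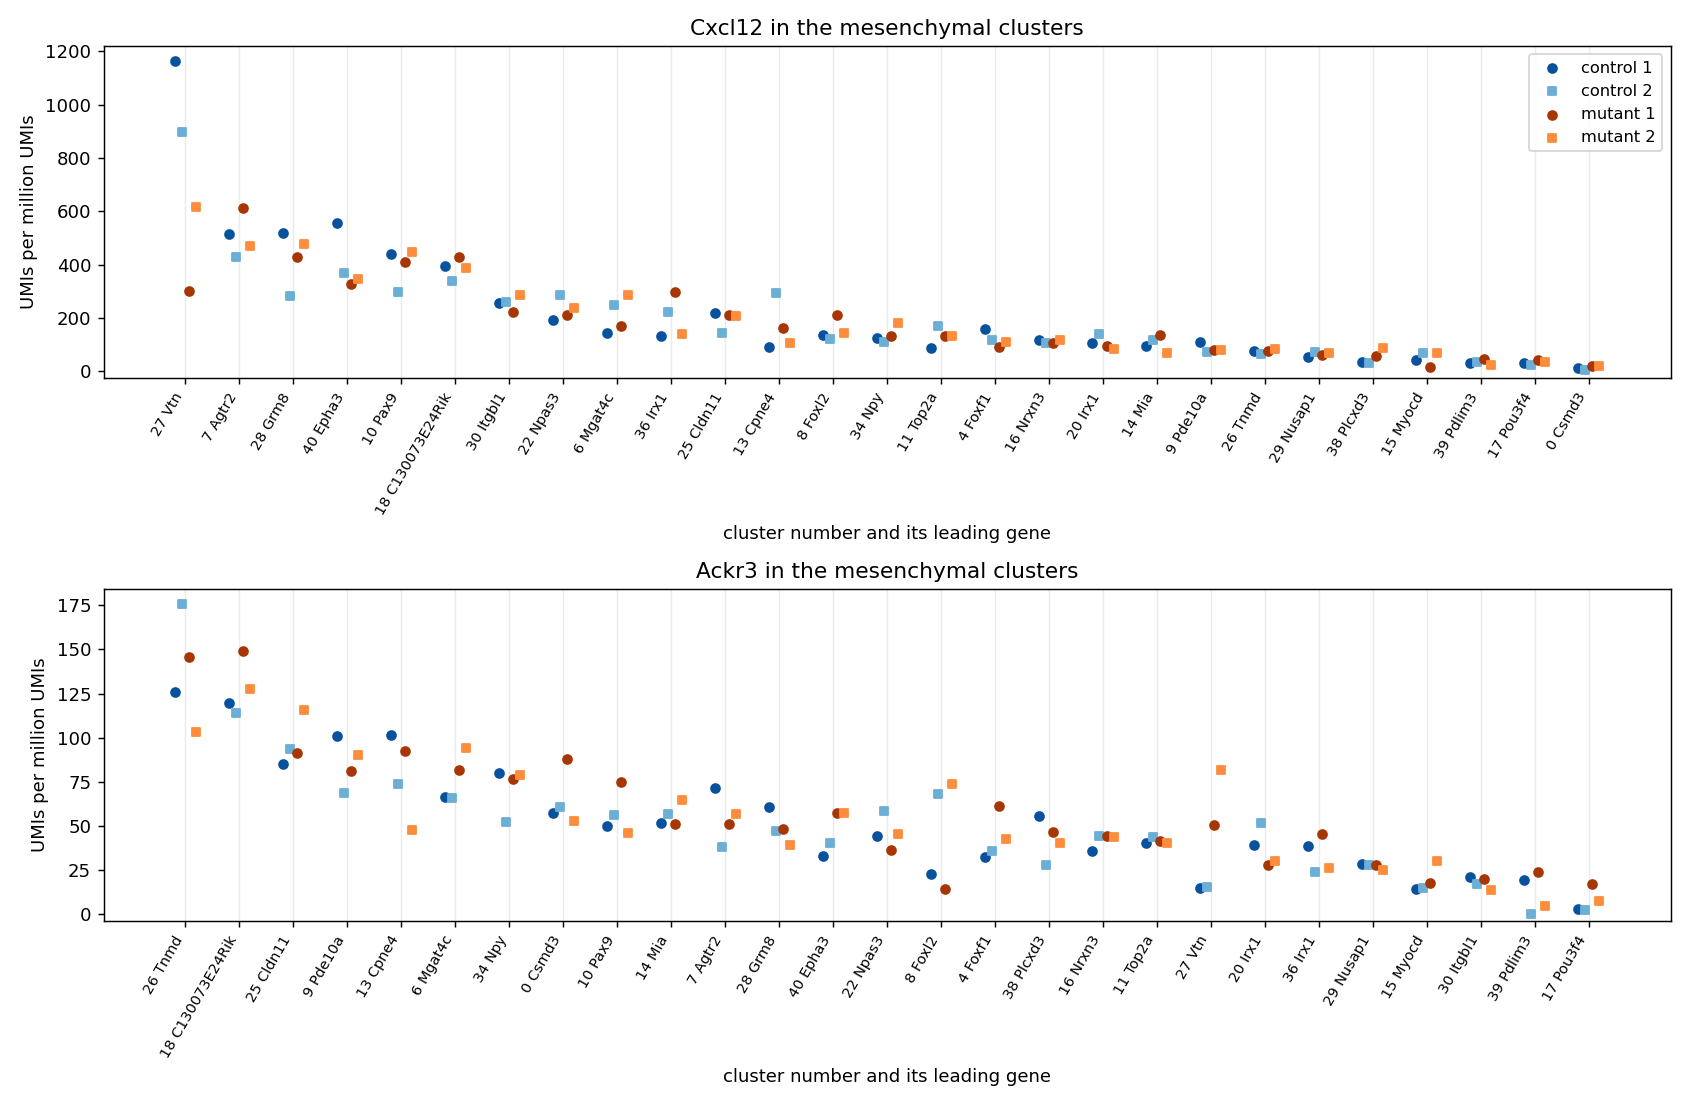
Levels of Cxcl12 (top) and Ackr3 (bottom) in CPM (y axis, linear) in the 27 mesenchymal clusters (x axis, cluster number with its leading gene, highest mean first); each point is 1 library, colours and shapes as labelled. Cluster 27 has the highest mean of Cxcl12 with controls at 1162 and 898, and clusters 26 and 18 have the highest means of Ackr3.

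Cxcr4, the signalling receptor, was sparse: 123, 40, 121 and 96 UMIs were counted in all kept cells of control 1, control 2, mutant 1 and mutant 2. Its highest mean level was in the olfactory neuronal lineage, the cluster that expressed Gap43, Dcx, Stmn3 and Tubb3. There it had 22.4, 69.6, 42.4 and 37.1 CPM, from 4, 4, 10 and 3 UMIs. Endothelial cells followed with 16.4, 10.1, 41.3 and 16.5, mural cells with 27, 0, 26.8 and 13.1, and macrophages with 19.97, 12.03, 13.03 and 20.3. Non-neuronal olfactory epithelial cells had 11.97 to 17.05, respiratory epithelial cells 10.4 to 14.8 and skeletal muscle cells 7.43 to 20.8. Each class in this order overlapped the next over the 4 libraries, so the order of neighbours is not resolved. With clusters made at a coarser resolution there was no separate class of non-neuronal olfactory epithelial cells. The class named neuronal then had 111, 13, 86 and 90 cells, where it had 26, 6, 23 and 17 before. The mean of that broader class was 20.1, so it is not a second estimate of the 42.9 above.

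Mesenchyme, which held most of the ligand, had 0.451 to 1.35 CPM of Cxcr4. After each cell was thinned to 2000 UMIs, 0.0554% to 0.291% of mesenchymal cells had a Cxcr4 UMI. In keratinocytes, taken as the background class for this gene, the share was 0% to 0.847%, so the share over all mesenchymal cells is not told apart from background. The mesenchymal counts were uneven. Cluster 39, led by Pdlim3, Col19a1 and Fgf14, had the highest mean of the 27 mesenchymal clusters at 8.89 CPM, where their median was 0.363 and keratinocytes had 2.39. It held 6, 0, 8 and 0 Cxcr4 UMIs in control 1, control 2, mutant 1 and mutant 2, so 1 library of each group was at 0. Clusters 29 and 30 held 16 and 11 UMIs over all libraries, and clusters 0, 6, 14, 15, 20, 22, 36 and 40 held none. In the neuronal lineage 1 of 23, 1 of 5, 2 of 21 and 2 of 17 thinned cells had one. Without thinning it was 2 of 26, 2 of 6, 6 of 23 and 3 of 17 cells. Median depth was 4325 to 10423.5 UMIs in neuronal cells and 6521.5 to 10484.5 in keratinocytes. Because mesenchymal cells were so many, they still contributed 15% to 21.1% of the Cxcr4 UMIs, close to the 12.5% to 21.5% of endothelial cells and the 7.50% to 18.8% of non-neuronal olfactory epithelial cells.

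Cells with at least 3 UMIs of Gnrh1, the gene of gonadotropin-releasing hormone, numbered 2 of 13284. Both were in control 1 and fell in cluster 37 of the keratinocyte class, at 68245 and 33372 UMIs per cell, and neither held a Cxcr4 UMI. As neither cell fell in a neuronal class, no neurons of this hormone were identified, and the receptor in them could not be assessed.

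Ackr3, the scavenging receptor, was spread over mesenchyme and epithelia and was nearly missing from mural cells and macrophages. Respiratory epithelial cells had 57.4 ± 22.1 CPM, keratinocytes 56.0 ± 15.5, mesenchyme 53.1 ± 0.852 and osteoblasts 51.4 ± 7.84 (SD, n = 4 libraries each). Non-neuronal olfactory epithelial cells had 47.5 ± 18.6 and endothelial cells 39.0 ± 17.7. Each of these classes overlapped its neighbours in the order, and the neuronal lineage came lower at 9.16 ± 12.1, which was 32.0 with doublets kept. Mural cells had 6.23, 7.26, 3.83 and 0 CPM and macrophages 1.43, 0, 4.34 and 3.13, all at or below 3 counts per library. Of the 2 vascular classes, endothelial cells were therefore the ones with the scavenger, at 22.1 to 62.0 with no overlap, and mural cells had more of the ligand, at 36.3 to 111 against 6.36 to 34.8.

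Clusters inside a class differed in Ackr3 as well. Among mesenchymal clusters its mean ran from 7.55 CPM in cluster 17 to 138 in cluster 26, with a median of 46.0. Cluster 26 was led by Tnmd (tenomodulin, a tendon gene), Ccn3 and Sema3c and had 126, 176, 146 and 103, while cluster 18 had 120, 114, 149 and 127. Cluster 18 was therefore high in both ligand and scavenger, and cluster 26 was high in the scavenger with 66.8 to 85.2 of Cxcl12. Cluster 27, the highest in Cxcl12, had 14.9 and 15.2 of Ackr3 in the controls. In keratinocytes, cluster 37, led by Trp63 (a basal-layer transcription factor), Dapl1 and Fxyd3, had 133, 82.6, 76.2 and 141. Cluster 12, led by Upk1b, Krt19 and Slc2a3, had 0 UMIs in 23, 17, 6 and 5 cells, which allows up to 12.6, 14.2, 39.1 and 62.7 CPM.

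Ligand and scavenger were both counted in some of the same mesenchymal cells. After thinning to 2000 UMIs, 10.9%, 9.81%, 11.5% and 11.3% of cells with a Cxcl12 UMI had an Ackr3 UMI in control 1, control 2, mutant 1 and mutant 2. In cells without Cxcl12 the shares were 9.88%, 9.29%, 9.27% and 8.80%. The share was higher in the cells with Cxcl12 in 4 of 4 libraries, and this difference was not tested. In macrophages the Ackr3 share was 0% to 1.49%, with median depths of 7323 to 9850 UMIs against 4946 to 8188 in mesenchyme.

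**Figure D3:**
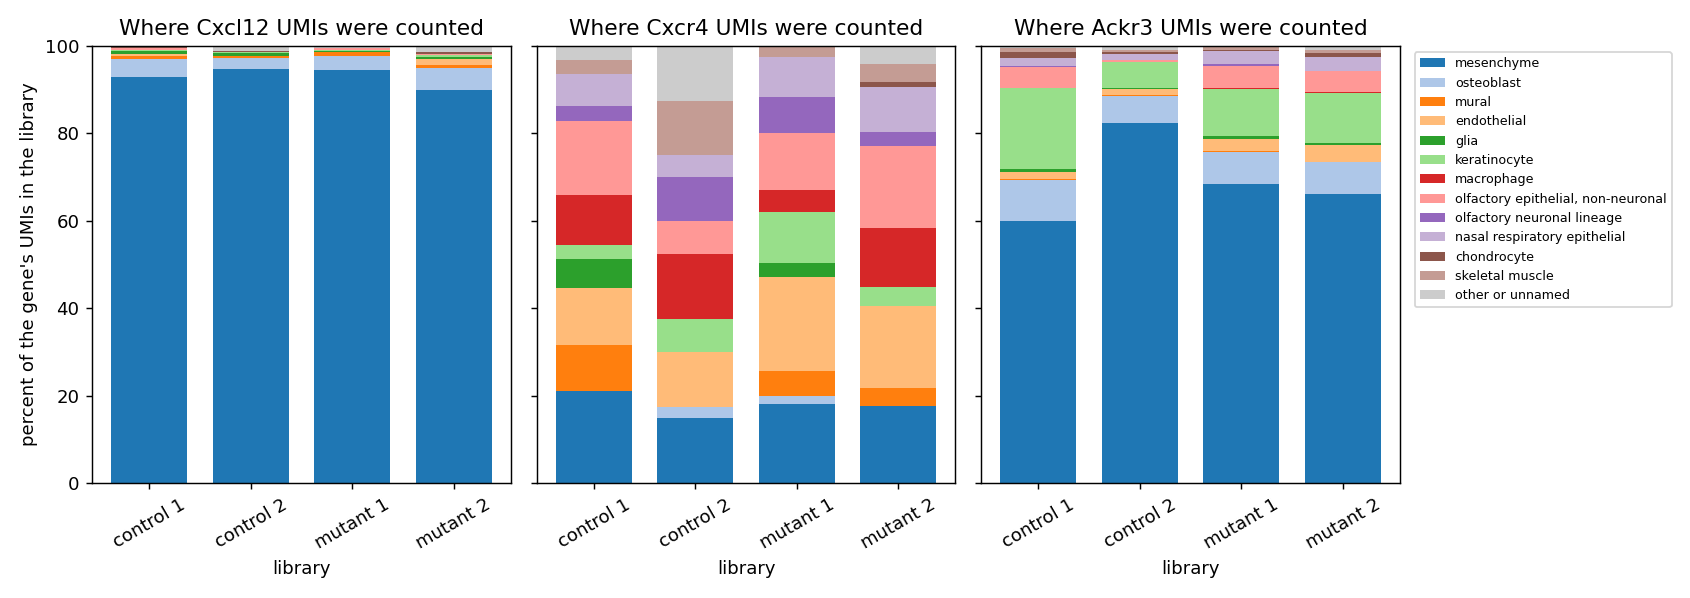
Share of each gene's UMIs by cell class, in percent (y axis), in each of the 4 libraries (x axis); colours are cell classes and grey is other or unnamed cells. Mesenchyme holds 90.0% to 94.8% of Cxcl12 UMIs and 59.9% to 82.3% of Ackr3 UMIs, whereas Cxcr4 UMIs are divided among many classes.

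Across the 49 clusters, the genes most like Cxcl12 in level were Rbm46 (Pearson r = 0.86 on log2(CPM + 1)), Gm11627 (0.86), Cyp2d22 (0.86), Efemp2 (0.85) and Col3a1 (0.84). Those most like Cxcr4 were D1Ertd622e (0.75), Pkig (0.74), H2afy (0.70), Sgsm1 (0.68) and Sh2b2 (0.67). Among those most like Ackr3 were Zfp267 (0.82), Pdpn (0.82), Ston1 (0.82) and Ppm1k (0.80). Between the members r was 0.47 for Cxcl12 with Ackr3, -0.47 for Cxcl12 with Cxcr4 and -0.15 for Cxcr4 with Ackr3. The clusters share libraries, and small clusters have few UMIs, so these values are descriptions over 15374 genes.

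In the whole nose none of the 3 genes passed the test between mutants and controls. Cxcl12 had 128, 155, 122 and 126 CPM in control 1, control 2, mutant 1 and mutant 2, and both mutants lay below both controls. Its log2 change was -0.23 ± 0.12 (SE; edgeR adjusted p = 0.912). Cxcr4 had 3.68, 2.10, 4.40 and 3.81, with both mutants above both controls and a log2 change of 0.45 ± 0.31 (adjusted p = 0.912). Leaving out 1 library at a time, that change ran from 0.13 to 0.91. Control 2, the lowest, had 7 non-neuronal olfactory epithelial cells, against 85 in control 1, 63 in mutant 1 and 73 in mutant 2. The part of this in the Cxcr4 level was not tested. Ackr3 had 50.5, 46.0, 50.8 and 49.8, overlapping, with a log2 change of 0.02 ± 0.08 (adjusted p = 0.980). Of all 17939 genes tested, 0 (0%) passed an adjusted p of 0.05 with edgeR, 879 had an unadjusted p under 0.05, and DESeq2 called 30. In a sum over all cells, fewer cells of a type and less RNA per cell cannot be told apart. Without cluster 27 the log2 change of Cxcl12 was -0.07 ± 0.12, and without control 2 it was -0.08 ± 0.08.

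In the mesenchyme Cxcl12 had 207, 210, 172 and 182 CPM, both mutants below both controls. The log2 change was -0.27 ± 0.09 (edgeR adjusted p = 0.553). It was -0.11 ± 0.09 without cluster 27, a choice made after these values were seen. When the 23 mesenchymal clusters that reached 20 cells in each library were given equal weight, the levels were 190, 175, 190 and 185 and the log2 difference was 0.04. Tested one by one, 0 of these 23 clusters passed for Cxcl12 and 3 had an unadjusted p under 0.05: cluster 38 at 1.07, cluster 20 at -0.50 and cluster 4 at -0.53. Ackr3 passed in 0 of the 21 clusters in which it could be tested, and 2 had an unadjusted p under 0.05. Over all genes and these clusters, 0.0237% of tests passed. In the thinned cells, 25.4% and 26% of control and 19.4% and 23.5% of mutant mesenchymal cells had a Cxcl12 UMI. These groups do not overlap, and the exact two-sided permutation test gave p = 0.333, the smallest that 2 against 2 libraries allow. The groups' means differed by -4.23 points, and by -6.81 points without thinning.

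Ackr3 in mesenchyme had 52.7, 54.3, 52.3 and 52.9 CPM, overlapping, and a log2 change of -0.06 ± 0.09 (edgeR adjusted p = 0.887). Cxcr4 there had a log2 change of 0.24 ± 0.51 (adjusted p = 0.934) at 0.451 to 1.35 CPM. In the mesenchyme as a whole 0 of 15902 genes (0%) passed with edgeR, 1288 had an unadjusted p under 0.05, and DESeq2 called 71. Osteoblasts had Cxcl12 at 60.1, 61.4, 64.7 and 76.1 (log2 change 0.17 ± 0.17) and Ackr3 at 51.9, 46.3, 62.3 and 45.2 (0.05 ± 0.20). Neither passed (adjusted p = 1.00 for both), and 0 of 10769 genes (0%) did with edgeR, where 416 had an unadjusted p under 0.05 and DESeq2 called 1.

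In mural cells both mutants had higher Cxcl12 values than both controls. The level was 54.0, 36.3, 111 and 91.8 CPM in control 1, control 2, mutant 1 and mutant 2, from 26, 10, 29 and 28 UMIs in 51, 29, 24 and 34 cells. The log2 change was 1.09 ± 0.36 (edgeR adjusted p = 0.147), so it did not pass within the class. At full depth 25.5% and 17.2% of control and 41.7% and 47.1% of mutant mural cells had a Cxcl12 UMI. After thinning to 2000 UMIs these were 14.0% and 7.41% against 13.6% and 11.8%, which overlap, from 2 to 7 cells a library. No single mural cell held more than 30% of the Cxcl12 UMIs of its library's class. Of 5011 genes tested in mural cells 122 passed (2.43%). Cxcl12, the only member with enough counts to be tested there, was not among them.

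The change of Cxcl12 in mural cells differed from that in mesenchyme. The difference of the log2 changes was 1.31 ± 0.32 (edgeR class by genotype term, adjusted p = 0.00853), higher in mural cells, and 1.09% of 14647 genes passed this test. In this fit edgeR in effect pooled the spread over all genes. The p-value therefore does not measure how much Cxcl12 itself varied between libraries. Without cluster 27 in the mesenchymal sum the difference was 1.15 ± 0.33 (adjusted p = 0.0410). It lost the threshold without control 2 (1.10 ± 0.39, adjusted p = 0.413) and without mutant 1 (1.18 ± 0.40, adjusted p = 0.324). The 9 mesenchymal markers summed to 2392, 1840, 2128 and 2426 CPM in mural cells, with 0, 0, 2 and 0 markers at 0, and overlapped between groups. The 11 mural markers summed to 5534, 4691, 6756 and 7265, higher in both mutants, with none at 0, and their part in the result was not tested. Against endothelial cells the mural difference was 0.84 ± 0.61 (adjusted p = 0.923; 0.466% of 7937 genes passed). For osteoblasts against mesenchyme the difference was 0.44 ± 0.15 (adjusted p = 1.00) in a test that 0 of 14897 genes (0%) passed, 589 having an unadjusted p under 0.05.

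**Figure D4:**
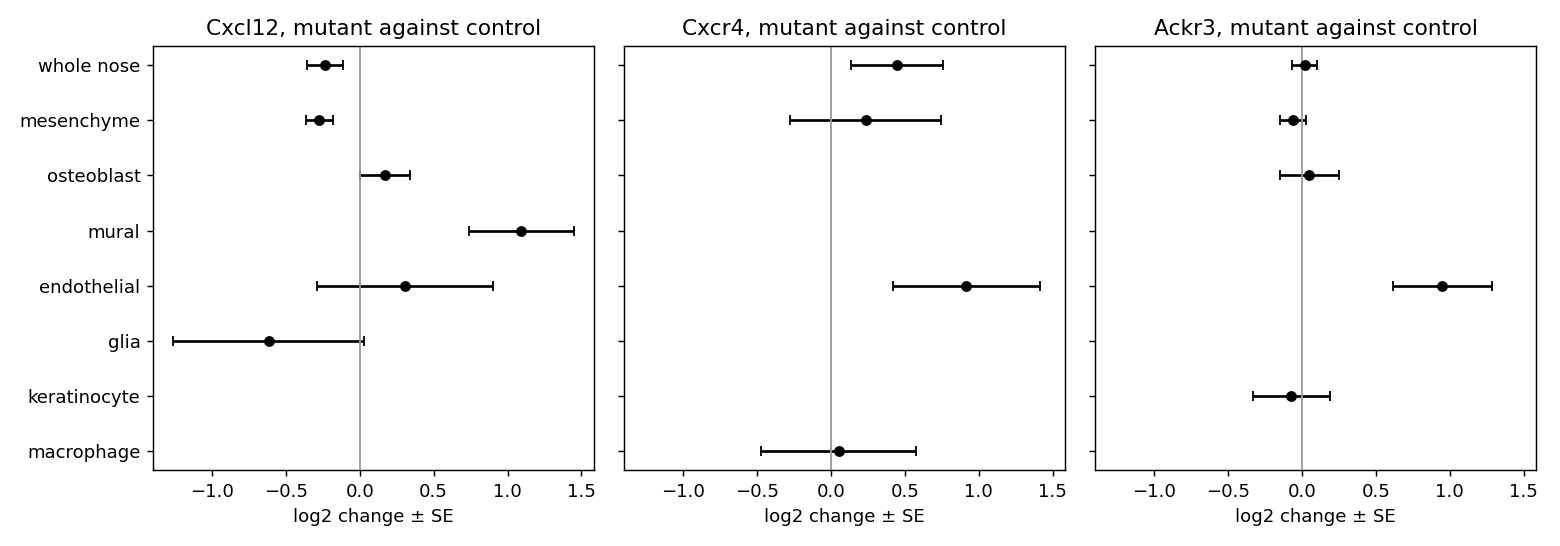
Log2 change of each gene, mutant against control (x axis), in the whole nose and in the classes in which it could be tested (y axis); points are edgeR estimates and bars are standard errors, with 2 libraries per group. Cxcl12 in mural cells is at 1.09 and in mesenchyme at -0.27, and no point shown passed an adjusted p of 0.05.

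In endothelial cells both receptors had higher estimates in the mutants without passing the test. Ackr3 had 28.7, 22.1, 62.0 and 43.0 CPM, both mutants above both controls, with a log2 change of 0.95 ± 0.33 (edgeR adjusted p = 0.807). The cell with the most Ackr3 held 25.0%, 36.4%, 38.5% and 19.1% of these UMIs in control 1, control 2, mutant 1 and mutant 2. Cxcr4 had a log2 change of 0.92 ± 0.50 (adjusted p = 0.995), and its mutant 1 value of 41.3 stood apart from the other 3 libraries. Cxcl12 had 23.6, 10.1, 6.36 and 34.8, with a log2 change of 0.30 ± 0.59 (adjusted p = 0.995) that became -1.53 ± 0.97 without mutant 2. Of 8165 genes 13 passed (0.159%), and 0 of the 3 members did. The 9 mesenchymal markers summed to 65.5, 56.3, 145 and 492 CPM in endothelial cells, with 1, 2, 1 and 0 at 0, and were highest in mutant 2, which had the most Cxcl12. The 7 erythroid markers summed to 118, 12.1, 1974 and 2.75, highest in mutant 1, which had the most Cxcr4 and Ackr3, with 2, 5, 1 and 6 at 0. The part of either in these levels was not tested. After thinning, the share of endothelial cells with an Ackr3 UMI was 5.77%, 14.8%, 11.8% and 7.69%, overlapping, where at full depth 11 of 57, 5 of 31, 12 of 38 and 20 of 67 cells had one. The change of Ackr3 in endothelial cells less that in mesenchyme was 0.99 ± 0.35 (adjusted p = 0.335; 0.666% of 15160 genes passed).

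Glia, the class that expressed Sox10 and Fabp7 and so the driver of the Cre, had Cxcl12 at 84.0, 98.4, 19.2 and 131 CPM. These came from 31, 20, 6 and 19 UMIs, and the 2 mutants lay on either side of the controls. The log2 change was -0.62 ± 0.65 (edgeR adjusted p = 0.976) and turned to 0.43 ± 0.49 without mutant 1. No gene of 4802 (0%) passed in glia with edgeR or with DESeq2, and 245 had an unadjusted p under 0.05 with edgeR. The 9 mesenchymal markers summed to 843, 280, 358 and 633 in glia, with 1, 3, 5 and 4 at 0, and their part in the level of Cxcl12 was not tested.

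In keratinocytes Ackr3 had 73.8, 37.1, 52.0 and 61.1 CPM, overlapping, with a log2 change of -0.07 ± 0.26 (edgeR adjusted p = 0.981). Without control 1 it was 0.56 ± 0.24 (adjusted p = 0.192). In macrophages Cxcr4 had a log2 change of 0.05 ± 0.52 (adjusted p = 0.997). The background was 0.00859% of 11648 genes in keratinocytes and 0.0458% of 6553 genes in macrophages. Ackr3 was the only member with enough counts to be tested in keratinocytes, and Cxcr4 the only one in macrophages. The neuronal lineage, with 6 cells in control 2, was not tested, nor were the non-neuronal olfactory epithelial cells, with 7.

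The pathway was followed with a list of 34 genes that includes the 3 members, so its counts and medians are not separate from theirs. It adds other ligands, receptor partners, the ligand-cleaving protease Dpp4, G protein subunits, receptor kinases and arrestins, and genes of cell movement. In the whole nose 32 were tested and 0 passed with edgeR or DESeq2, with 4 at an unadjusted p under 0.05 in edgeR. The median log2 change of the list was -0.06, and that of all genes was 0.00. The largest estimates were those of Dpp4, at 6.46, 10.4, 5.42 and 4.72 CPM (-0.77 ± 0.27, adjusted p = 0.912), and Dock2, a Rac activator of immune cells (-0.51 ± 0.22, adjusted p = 0.912). In mesenchyme 0 of 30 passed with either tool, 5 had an unadjusted p under 0.05 in edgeR, and the list's median was -0.07, again beside 0.00 for all genes. Dpp4 there had a log2 change of -1.14 ± 0.29 (adjusted p = 0.471) and Ptk2b, a focal adhesion kinase relative, 0.80 ± 0.45 (adjusted p = 0.673).

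In mural cells 2 of the 16 list genes tested passed, both lower in the mutants, beside the 2.43% of all genes. Ptk2, which encodes focal adhesion kinase, had 235, 425, 157 and 138 CPM and a log2 change of -1.13 ± 0.28 (edgeR adjusted p = 0.0325). Gng2, a G protein gamma subunit, had 185, 210, 92.0 and 98.4 and a log2 change of -1.05 ± 0.26 (adjusted p = 0.0379). The list's median there was -0.02, beside 0.00 for all genes. Both calls were lost without control 2 (adjusted p = 0.315 for Ptk2, 0.118 for Gng2) and without mutant 2 (0.104 and 0.143), and that of Gng2 without mutant 1 (0.226). DESeq2 gave an adjusted p of 0.0719 for Ptk2 and none for Gng2.

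Among the other classes, 0 of 24 list genes passed in endothelial cells, 0 of 16 in glia, 0 of 28 in keratinocytes, 0 of 26 in macrophages and 0 of 24 in osteoblasts. Those with an unadjusted p under 0.05 in edgeR numbered 1, 0, 2, 1 and 3 in that order, and DESeq2 called 2 in keratinocytes and 0 in each of the others. The list's medians were 0.02, -0.07, 0.00, 0.05 and -0.05, where all genes had -0.01 in glia and 0.00 in the rest. In keratinocytes the estimates of Elmo1 and Cxcl14 were the largest of the list. Elmo1, which encodes a partner of Dock proteins in Rac activation, had 57.8, 42.0, 161 and 140 CPM (1.54 ± 0.17, edgeR adjusted p = 0.0715). Cxcl14, a chemokine of epithelia, had 881, 970, 1649 and 1497 (0.75 ± 0.12, adjusted p = 0.163). In both genes the mutants lay above the controls without overlap. DESeq2 called both genes in keratinocytes, as did the test with no filter on low counts. Keratinocyte cluster 41, led by Lgals7, Pthlh and Cxcl14, held 17, 7, 38 and 38 cells in the 4 libraries, controls first. The class had 285, 114, 242 and 320 cells, and the part of cluster 41 in the Cxcl14 level was not tested. With the members left aside, the widest estimates elsewhere were Grk6 at -0.69 and Pik3cg at -0.52 in endothelial cells, Sdc4 at 0.50 and Mif at -0.43 in glia, Ptk2b at 0.54 and Cd74 at 0.50 in macrophages, and Cxcl14 at -0.75 and Grk5 at 0.67 in osteoblasts. Between classes, the change differed in endothelial cells against mesenchyme for 1 of 29 list genes, beside 0.666% of all 15160. It was that of Cxcl14, on 0, 1, 2 and 29 endothelial UMIs, so it rests on mutant 2. In mural cells against mesenchyme it differed for 3 of 28, Cxcl12, Ptk2 and Gng2, beside 1.09% of 14647. In mural against endothelial cells it differed for 1 of 24, Ptk2, beside 0.466% of 7937. In osteoblasts against mesenchyme 0 of 27 passed with edgeR, 6 had an unadjusted p under 0.05, and the widest differences were those of Adm (1.85) and Grk5 (0.81).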

How the data were processed

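As deposited, the 4 libraries come as raw counts of UMIs for each gene in each cell barcode, and a further sample named in the protocol was not analysed here. The submitters' processing notes name mm10, Cell Ranger 4 and Seurat 4.3.0, whereas the file headers name cellranger 8.0.1. Cells needed 500 genes and no more than 10% mitochondrial UMIs. Scrublet's automatic threshold marked 0 to 3 cells a library and had not worked, so the top scores (0.8% per 1000 barcodes; 149, 56, 87 and 163 cells) were removed. Cells were clustered with scanpy 1.11.5 (2000 variable genes, 40 components, 20 neighbours, Leiden resolution 2), and clusters were named with at least 3 detected markers. Of the pathway list, 33 of 34 symbols were found. Counts were summed per library and class wherever each library had 20 cells and tested with edgeR's quasi-likelihood test (TMM, filterByExpr), adjusted by Benjamini-Hochberg over all genes tested. DESeq2, a replicate block and other alternatives are given in the closing section. The edgeR script was tested on simulated data. Same-numbered libraries deviated with correlations of -0.15 to 0.09, and the main fits used no pairing by number. With 2 libraries per group these correlations cannot settle whether same-numbered libraries belong together. Genes were named by rule: the members in every class, list genes that passed or otherwise those with the largest change, and the 5 genes most like each member, of which 1 is not reported here. Members, lists and markers were chosen with earlier results of these data known. Shares of single libraries have exact Clopper-Pearson intervals at 95%, and the limit for a count of 0 is 3 counts.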

Additional observations from a re-analysis of the deposited data

Results flagged for a closer look

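The log2 change of Cxcl12 between mutants and controls differed between mural cells and mesenchyme by 1.31, and those of Ptk2 and Gng2 by -1.09 and -0.98, each in edgeR's class by genotype test. Ptk2 also differed between mural and endothelial cells by -1.29. For Cxcl14 the change differed between endothelial cells and mesenchyme by 4.63, on 0, 1, 2 and 29 endothelial UMIs in control 1, control 2, mutant 1 and mutant 2. The Cxcl14 value rests on mutant 2, which also had the most UMIs of mesenchymal markers in its endothelial cells. In the fits of mural and endothelial cells against mesenchyme, the p-values rest on a spread in effect pooled over all genes.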

How the results depend on the processing

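The 12 changes of the members within classes kept their direction and their side of the threshold in 124 of 137 alternative fits, and the 3 in the whole nose in 30 of 33, and no member came past the threshold within a class or the whole nose. Direction reversed for Ackr3 in the whole nose without cluster 27 (-0.00296), for Cxcr4 in macrophages with doublets kept (-0.026), and for Cxcl12 (0.038), Cxcr4 (-0.12) and Ackr3 (0.058) in mesenchyme with clusters weighted equally. Leaving out 1 library at a time, the log2 change ran from -0.033 to 0.075 for Ackr3 in the whole nose, -0.17 to 0.26 in osteoblasts and -0.38 to 0.56 in keratinocytes. It ran from -1.53 to 1.16 for Cxcl12 in endothelial cells, -2.26 to 0.43 in glia, -0.22 to 0.49 for Cxcr4 in macrophages and -0.27 to 1.29 in mesenchyme. For Cxcl12 the difference of changes ran from -1.31 to 1.46 between endothelial cells and mesenchyme, -0.0048 to 2.74 between mural and endothelial cells, and 1.10 to 1.76 between mural cells and mesenchyme, which lost the threshold without control 2 or mutant 1. Where a result moved, the cause was not tested unless fewer libraries or more genes tested were the change itself.

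Counts of called genes moved more. Without a filter on low counts they were 115 in endothelial cells, 41 in glia, 234 in keratinocytes, 92 in macrophages, 599 in mesenchyme, 215 in mural cells, 52 in osteoblasts and 12 in the whole nose, 56 for mural against endothelial cells and 33 for osteoblasts against mesenchyme. DESeq2 called 6 genes in endothelial cells, 16 in keratinocytes, 8 in macrophages, 71 in mesenchyme, 33 in mural cells, 1 in osteoblasts and 30 in the whole nose. With doublets kept the counts were 6 in endothelial cells, 0 in macrophages, 34 for endothelial cells and 13 for mural cells against mesenchyme and endothelial cells respectively, and 5 for osteoblasts against mesenchyme. Keratinocytes had 0 at resolution 1 and 8 with stricter cells. With each library left out, the counts ran from 56 to 165 in endothelial cells, 3 to 142 in glia, 3 to 643 in keratinocytes, 5 to 80 in macrophages, 2 to 750 in mesenchyme, 81 to 279 in mural cells, 3 to 31 in osteoblasts and 0 to 268 in the whole nose. Between classes they ran from 51 to 89 for endothelial cells and 45 to 160 for mural cells against mesenchyme, 15 to 79 for mural against endothelial cells and 0 to 42 for osteoblasts against mesenchyme. Pathway list genes called were 1 in endothelial cells, 2 in keratinocytes and 3 in mesenchyme without the filter, 2 in keratinocytes and 0 in mural cells with DESeq2, and with a library left out 0 to 1 in endothelial cells, 0 to 2 in keratinocytes, 0 to 5 in mesenchyme and 0 to 2 in mural cells.

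Whether the replicate numbers of the labels pair the libraries was not settled. With the number as a replicate block, 55 genes were called in endothelial cells, 53 in keratinocytes, 0 in macrophages, 46 in mesenchyme, 30 in osteoblasts and 2 in the whole nose, 2 pathway list genes passed in keratinocytes, and no member did. Crossing the numbers in macrophages, chosen after seeing the data, gave 56 genes.

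Depth limits Cxcr4, with 40 to 123 UMIs a library, and the mural, glial and neuronal classes, with 6 to 51 cells a library. The share of mural cells with a Cxcl12 UMI differed between groups by 2.00 points after thinning to 2000 UMIs, 6.49 at 1000 UMIs and 23.0 without thinning. With doublets kept or at resolution 1 the level of Cxcl12 in osteoblasts was 51.4 or 53.5 CPM.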
